A study of Mus musculus with 16 samples.

Results

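The genes described here are 6 STAT transcription factor genes (Stat2, Stat3, Stat4, Stat5a, Stat5b and Stat6) and 3 genes of the SOCS feedback family (Socs1, Socs3 and Cish). They were chosen by name, with earlier results of these data known. All 9 were listed among the 17128 genes of the plasmacytoid dendritic cell (pDC) table and the 17721 genes of the conventional dendritic cell (cDC) table. RNA-seq had been done on pDCs and on the conventional subsets cDC1s and cDC2s, sorted from the spleen of C57BL/6 mice aged 6 to 8 weeks. Every mouse carried floxed Trim33 alleles. WT mice were Trim33 fl/fl, and cKO mice were Trim33 fl/fl Itgax-Cre, in which Cre is driven by the promoter of Itgax, the gene of CD11c. For pDCs and cDC2s 3 libraries of each genotype were sequenced, and for cDC1s 2 of each. Per the paper, each library came from several mice, with more mice for a cKO than for a WT library. The size of the pool therefore differed with genotype. The Cre acts in CD11c-expressing cells, so the groups compare cells that lost Trim33 late in differentiation. In these bulk samples fewer cells of a type and less RNA per cell cannot be told apart.

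STAT proteins are latent transcription factors that Janus kinases (JAKs) phosphorylate at cytokine receptors, after which they dimerize, enter the nucleus and bind DNA. STAT2 acts downstream of type I and type III interferons, STAT3 downstream of IL-6, IL-10 and Flt3 ligand, STAT4 downstream of IL-12 and type I interferon, STAT5A and STAT5B downstream of GM-CSF and the common gamma chain cytokines, and STAT6 downstream of IL-4 and IL-13. SOCS1, SOCS3 and CISH are SH2-domain proteins that are induced by STATs and restrain JAK-STAT signaling. In DCs, STAT3 is known for its role in Flt3 ligand-driven development, STAT5 for GM-CSF signaling, and SOCS1 for limiting responses to interferon.

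STAT dimers bind palindromes of the form TTCNNNGAA, STAT6 dimers prefer the wider spacing TTCNNNNGAA, and the interferon-stimulated response element holds pairs of GAAA, searched here as GAAANNGAAA on both strands. Windows from 250 bases upstream to 50 bases downstream of each RefSeq start (GRCm38.p6) were searched for these letters, and the members had 12 such windows. TTCNNNGAA was found in 2 of the 12 windows and in 8.30% of all 32851 windows. TTCNNNNGAA was found in 1 window (6.95% of all windows) and GAAANNGAAA in 3 windows (3.44% of all windows). The first 2 patterns read the same on both strands, and a Stat2 TTCNNNNGAA match lies next to a GAAANNGAAA match. The matches are shown because these are the letters that STATs and interferon-activated factors bind, and a match describes letters, not binding. Capitals mark the matched letters.
Cish, chr9:107296659-107296678, plus strand: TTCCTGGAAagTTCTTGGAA
Socs3, chr11:117969492-117969540, minus strand: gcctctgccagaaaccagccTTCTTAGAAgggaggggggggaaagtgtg
Stat2, chr10:128270268-128270317, plus strand: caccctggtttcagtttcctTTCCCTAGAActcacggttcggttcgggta
Stat2, chr10:128270256-128270305, plus strand: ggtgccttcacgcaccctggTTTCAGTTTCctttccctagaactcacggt
Stat4, second start, chr1:52008123-52008172, plus strand: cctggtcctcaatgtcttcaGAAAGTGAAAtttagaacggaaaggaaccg
Socs1, chr16:10785590-10785639, minus strand: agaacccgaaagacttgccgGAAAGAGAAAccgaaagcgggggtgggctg
Socs1, chr16:10785584-10785633, minus strand: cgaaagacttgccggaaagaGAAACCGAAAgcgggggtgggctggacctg
The Cish window was the only member window with 2 TTCNNNGAA matches, which 0.457% of all windows hold, and its first match begins at base 1 of the transcript. The Socs1 matches overlap each other.

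Expression was measured as TPM (transcripts scaled to the same total in every library, a level per transcript length). Estimated depth ran from 18.0 M to 20.2 M reads a library, and replicates correlated at r = 0.991 to 0.997 across genes, which are not independent replicates. Trim33 fell to 46.3% of its WT mean in cDC1s (log2 fold change −1.02, SE 0.13, limma adjusted p = 3.49e-04) and to 41.3% in cDC2s (−1.17, SE 0.11, adjusted p = 1.26e-04). In pDCs it was at 61.2% (−0.68, SE 0.13, adjusted p = 0.0301). It passed the threshold in 1 of 11 alternatives, the replicate block (adjusted p = 0.00361), and in 0 of 6 fits that left a library out. These levels take in the whole gene, and reads over the floxed part were not counted apart. By qPCR and Western blot of sorted splenic DCs, the authors reported efficient inactivation of Trim33. The sorted labels were checked by summed markers. The 10 cDC1 markers summed to 5361 to 5943 TPM in cDC1s and 496 to 650 TPM in cDC2s, and the 10 cDC2 markers to 1517 to 1824 TPM in cDC2s and 236 to 291 TPM in cDC1s. The 10 pDC markers summed to 18727 to 20563 TPM in pDCs and 266 to 467 TPM in cDCs. WT pDCs also held 4020 to 4397 TPM of the cDC1 markers and 2271 to 2354 TPM of the cDC2 markers. Within these lists single markers changed with genotype. In cKO cDC1s, where 22.4% of all genes tested were called, 3 of 10 cDC1 markers fell (Itgae, Cadm1 and Clec9a). Of 10 cDC2 markers 2 rose (Itgam and Cx3cr1) and 2 fell (Esam and Cd4) there, and of 9 tested pDC markers 3 rose and 1 fell. In cKO cDC2s, where 7.15% were called, 3 of 10 cDC2 markers rose and 3 fell, and 1 pDC marker rose (Cox6a2). In cKO pDCs, where 1.05% were called, 1 pDC marker (Cox6a2) and 1 cDC2 marker (Itgam) rose. Markers of mature cells moved with genotype. The sum of 20 mature migratory DC markers went from 3597 to 5083 TPM in WT cDC1s to 1110 to 1357 TPM in cKO cDC1s, and from 3598 to 4920 TPM to 2518 to 2951 TPM in cDC2s. WT cDC1 library 1 held the highest of these sums (5083 TPM) and WT cDC1 library 2 the lowest WT cDC1 sum (3597 TPM).

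Summed STAT levels were highest in pDCs and lowest in cDC1s. In WT pDCs the 6 STATs summed to 632.3 ± 48.2 TPM (SD, n = 3), against 316.3 ± 51.7 TPM (SD, n = 2) in WT cDC1s and 488.7 ± 88.6 TPM (SD, n = 3) in WT cDC2s. The cKO sums were 610.4 ± 33.6, 322.1 ± 14.1 and 453.3 ± 58.5 TPM. Stat3 had the highest mean share in each WT group, at 33.8% of the sum in pDCs, 34.4% in cDC1s and 27.7% in cDC2s. Its levels overlapped those of Stat2 in WT pDCs and those of Stat6 in WT cDC1s and cDC2s, and Stat6 was above Stat3 in 2 of 3 WT cDC2 libraries. Stat2 held 29.95% of the sum in WT pDCs but 13.7% in WT cDC1s and 14.9% in WT cDC2s, whereas Stat6 held 16.7%, 30.7% and 26.9%. Stat4 held 9.90% ± 1.71 (SD, n = 3) of the sum in WT cDC2s and 0.819% in WT cDC1s. The pDC and cDC tables were made separately, so levels are set side by side across them with no test.

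**Figure D1:**
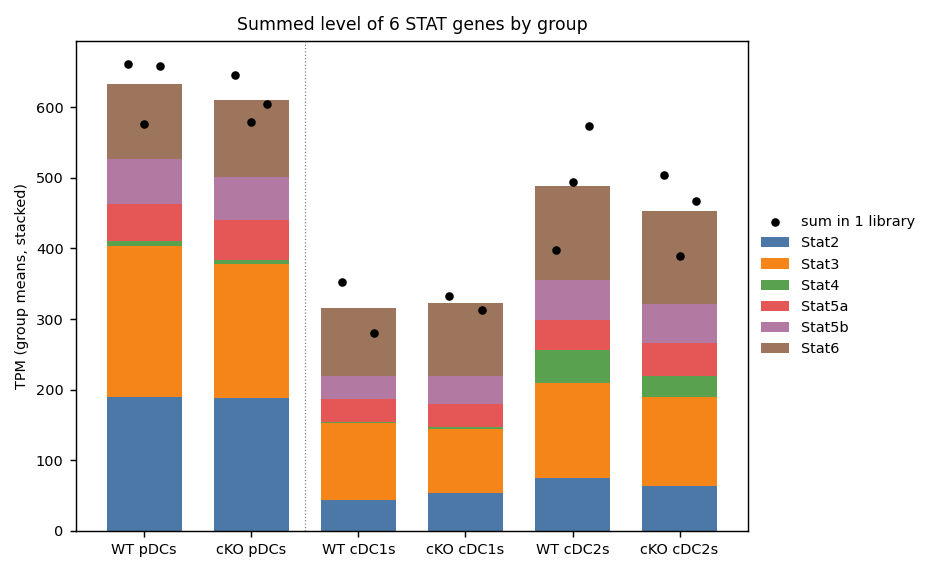
Stacked group means of the 6 STAT genes in TPM for the 6 groups, with dots for the sum in each library. The pDC means sum to 632.3 (WT) and 610.4 (cKO) TPM and the cDC1 means to 316.3 and 322.1 TPM, and the Stat4 layer is widest in the cDC2 groups.

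**Figure D2:**
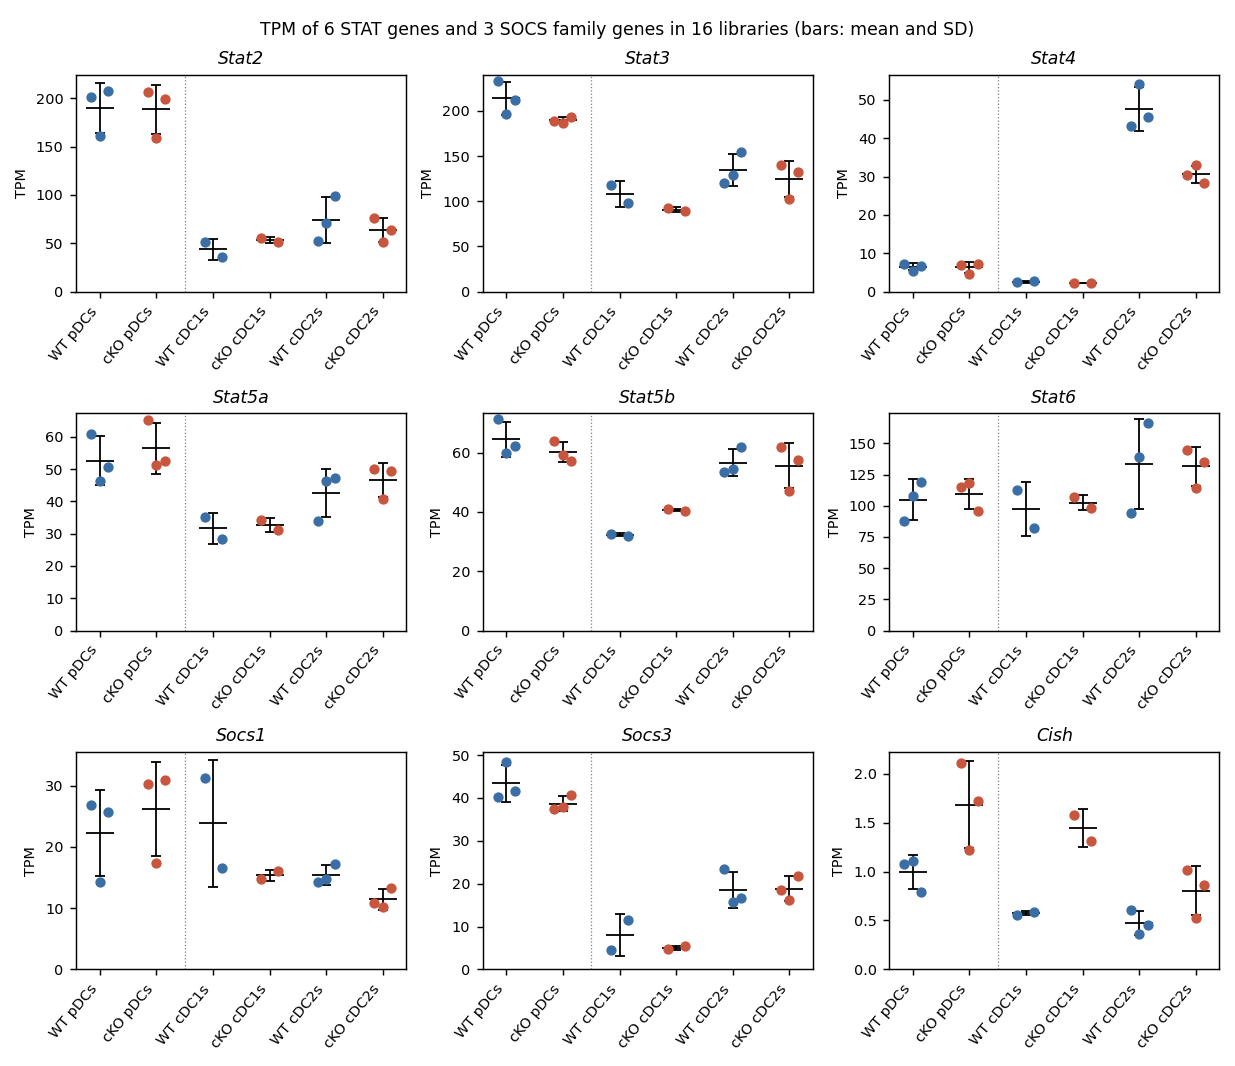
Level of each of the 9 genes (TPM) in every library by group, WT in blue and cKO in red, with bars for the group mean and SD. Stat4 stands at 43.2 to 54 TPM in WT cDC2s and 28.4 to 32.9 TPM in cKO cDC2s, and at 7.33 TPM or lower in every other library.

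A gene was called when its adjusted p from limma on log2(TPM + 1) did not exceed 0.01 and its log2 fold change was 0.5 or more in size. Of the 9 members, 0 were called between cKO and WT pDCs (Stat3 and Cish, 2 genes, had an unadjusted p under 0.05), where 1.05% of the genes tested were called, 119 in all and 335 with the replicate block. In cDC1s, 0 of 8 tested members were called (1 at an unadjusted p under 0.05, Stat5b), where 22.4% of genes were called. The cDC2 comparison called 1 of 8, Stat4, which was lower in cKO cells, where 7.15% of genes were called. The difference between the genotype effects in cDC1s and cDC2s was called for 0 of 8 (1 at an unadjusted p under 0.05, Stat4), where 2.56% of genes were called. An unadjusted p under 0.05 was common over all genes. By p, Cish ranked 2309 of 11299 genes in pDCs, Stat5b 5123 of 11411 in cDC1s and Stat4 2546 of 11411 in the difference. Between WT cDC1s and WT cDC2s 3 of 8 were called, all lower in cDC1s, where 31.7% of genes were called. Cish had a mean under 1 TPM over the cDC libraries and was not among the genes tested there. The median log2 fold change of the members was −0.01 in pDCs, −0.06 in cDC1s and −0.07 in cDC2s, beside −0.05, 0.17 and −0.03 over all genes. The calls in cDC1s split into 1806 higher and 749 lower in cKO cells, and with median-of-ratios scaling, which brings the median of all genes to about 0, 995 and 1114. The same rescaling moved the split from 1241 and 2371 to 1765 and 1755 between the WT cDC subsets, and from 138 and 154 to 101 and 265 in the difference between the genotype effects. The cDC contrasts share libraries, so their values are given side by side and are not independent.

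**Figure D3:**
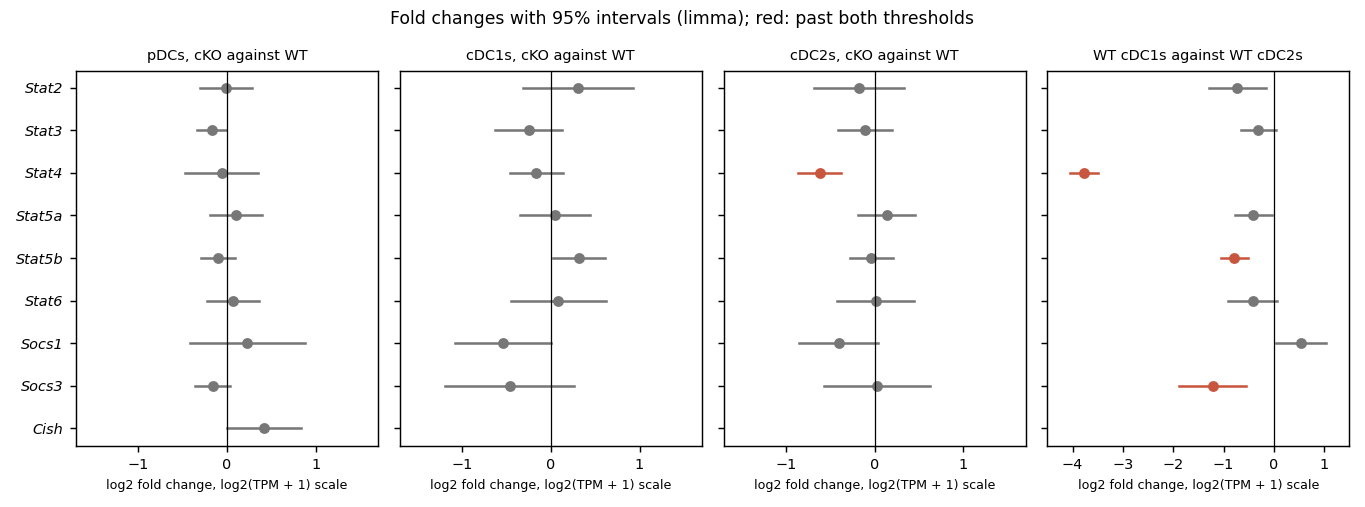
Log2 fold change of each member with its 95% interval in 4 contrasts, on the log2(TPM + 1) scale, with called members in red and Cish, below the filter in cDCs, shown for pDCs. The last panel, WT cDC1s against WT cDC2s, has a wider axis than the others because Stat4 lies at −3.77.

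Stat4, which carries IL-12 and type I interferon signals, was the member that differed most between the cDC subsets. It lies on chromosome 1 (chr1:51987106-52107189, GRCm38.p6, plus strand, 24 exons). WT cDC2 libraries held 43.17, 54.00 and 45.52 TPM and WT cDC1 libraries 2.40 and 2.68 TPM, an 18.7-fold difference of the means. The groups lay far apart, and the WT cDC1 values rest on 72 to 80 estimated reads a library. Against WT cDC2s the log2 difference was −3.77 (SE 0.12, 95% interval −4.04 to −3.50, limma adjusted p = 1.18e-08), and all 15 alternatives called it. WT pDCs lay between, at 7.33, 5.43 and 6.81 TPM. The order of the WT levels was therefore cDC2, pDC and cDC1, with no overlap between neighbours.

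In cKO cDC2s Stat4 read 30.5, 32.9 and 28.4 TPM. All 3 values were below the 3 WT values, and the mean fell from 47.6 ± 5.70 to 30.6 ± 2.27 TPM (SD, n = 3 each), 64.4% of WT. The log2 fold change was −0.62 (SE 0.11, 95% interval −0.86 to −0.37, limma adjusted p = 0.00437). The adjusted p lay near the threshold. It was 0.0146 in a fit of the 6 cDC2 libraries alone, and leaving out WT cDC2 library 2 (−0.52, adjusted p = 0.0151), cKO cDC2 library 1 (−0.61, 0.0167) or cKO cDC2 library 3 (−0.56, 0.0271) ended the call. So did leaving out cKO cDC1 library 1 (adjusted p = 0.0104) or library 2 (0.0103), which enter only the shared spread. A fit with a replicate block also lost the call, so that 9 of all 16 alternatives called it, and the direction was lower in each. Cells that can carry Stat4 were looked for by their markers. The 10 T cell markers summed to 29.95 to 35.49 TPM in WT and 27.10 to 32.20 TPM in cKO cDC2s, and the 7 NK cell markers to 4.08 to 11.64 and 4.01 to 6.49 TPM, so both ranges overlapped between genotypes. WT cDC2 library 2, the highest in Stat4, held the highest NK cell sum (11.64 TPM) and the lowest WT T cell sum (29.95 TPM). Only 4 T cell and 2 NK cell markers passed the filter, and their part in the Stat4 result was not tested. Other markers moved with genotype in the same libraries, where 7.15% of all genes tested were called. Of 20 mature migratory DC markers 5 were lower (median log2 fold change −0.51). Of 10 cDC2 markers 3 were higher (Cx3cr1, Mgl2 and Itgam) and 3 lower (Cd4, Esam and Irf4). Of 20 immediate-early genes 3 were lower (median −1.14). The part of these genes in the Stat4 result was not tested.

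In cDC1s Stat4 stood at 2.18 and 2.15 TPM in cKO libraries (63 to 65 estimated reads), below both WT values. The log2 fold change was −0.16 (SE 0.13, 95% interval −0.46 to 0.14, adjusted p = 0.364), and the cDC1 effect minus the cDC2 effect was 0.46 (SE 0.17, 95% interval 0.07 to 0.84, adjusted p = 0.108). The decrease in cDC2s was therefore not shown to differ from that in cDC1s. In pDCs the cKO values of 7.04, 4.64 and 7.22 TPM overlapped the WT values (log2 fold change −0.06, SE 0.18, adjusted p = 0.885). Part of the Stat4 exons, 1033 bases, is shared with the same-strand gene Gm28177, which the cDC table does not list, and 28.6% of the 50-base windows of the Stat4 transcript occur there.

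Over the 10 cDC libraries, the genes whose log2(TPM + 1) values followed Stat4 most closely were Sucnr1, the succinate receptor (Pearson r = 0.999), Pgap1, an enzyme of GPI anchor remodelling (r = 0.998), and Haus8, an augmin subunit (r = 0.997). These were the highest of 11410 other genes, and with 4 groups of libraries the coefficients mostly carry the gap between the cDC subsets. Sucnr1 stood at 0.13 TPM in WT cDC1s, 37.9 to 54.5 TPM in WT cDC2s and 23.4 to 31.1 TPM in cKO cDC2s. Pgap1 held 0.33 to 0.39, 12.3 to 14.03 and 7.30 to 8.64 TPM in the same groups, and Haus8 57.3 to 63.1, 247 to 268 and 218 to 226 TPM. All 3 had lower values in every cKO cDC2 library than in any WT cDC2 library, as Stat4 did. They were picked for following Stat4 over these same libraries, so this likeness is no separate result.

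**Figure D4:**
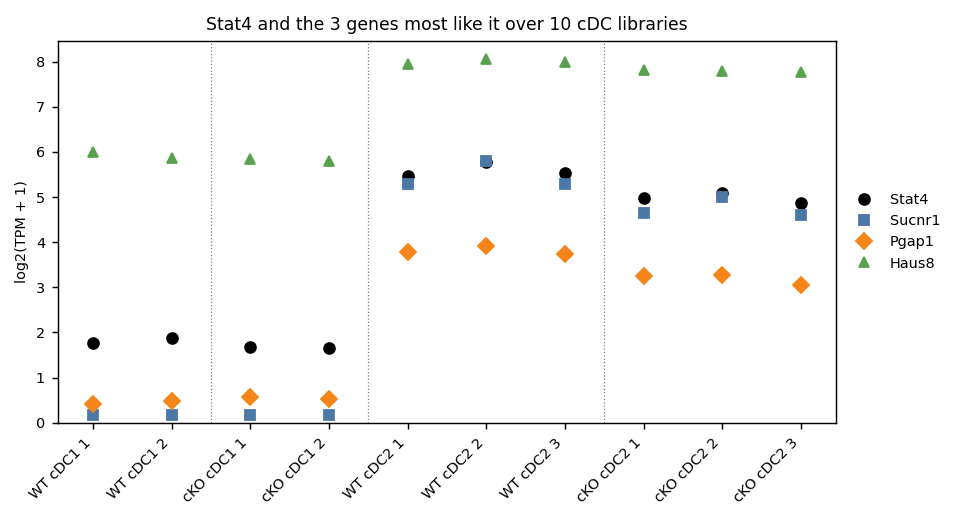
Level of Stat4, Sucnr1, Pgap1 and Haus8 on the log2(TPM + 1) scale in each of the 10 cDC libraries, by group. All 4 genes are high in cDC2s and low in cDC1s, and the cKO cDC2 points lie below the WT cDC2 points. The genes beside Stat4 were picked for their correlation with it over these libraries.

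Stat5a and Stat5b code for near-identical factors that act downstream of GM-CSF and the common gamma chain cytokines. They lie side by side on chromosome 11, Stat5b on the minus strand (chr11:100780731-100859004, 19 exons) and Stat5a on the plus strand (chr11:100859351-100885169, 18 exons). The transcripts share sequence, with 17.1% of the 50-base windows of Stat5a found in Stat5b and 11.8% of those of Stat5b found in Stat5a, so the split of reads between the pair is uncertain there. Stat5b stood at 32.6 and 32.1 TPM in WT cDC1s and at 53.6, 54.6 and 61.8 TPM in WT cDC2s. The groups did not overlap, and Stat5b was lower in cDC1s by a log2 difference of −0.79 (SE 0.12, 95% interval −1.06 to −0.52, limma adjusted p = 3.93e-04), called under all 15 alternatives. Stat5a read 35.1 and 28.3 TPM against 34.1, 46.3 and 47.4 TPM, and these overlapped (−0.41, SE 0.16, adjusted p = 0.0603). Without WT cDC2 library 1, the lowest of its group, Stat5a was called (−0.56, adjusted p = 0.00934).

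Between genotypes, Stat5b in cDC1s stood at 40.9 and 40.4 TPM in cKO libraries, above both WT values and 125.7% of the WT mean. The log2 fold change of 0.32 (SE 0.13, 95% interval 0.03 to 0.62, adjusted p = 0.0792) did not pass the threshold. The median of all genes in that contrast was 0.17, and with median-of-ratios scaling the Stat5b value was 0.13 (adjusted p = 0.362). In cDC2s the cKO values of 61.9, 47.1 and 57.7 TPM overlapped the WT values, as did 63.8, 59.1 and 57.3 TPM against 71.3, 59.9 and 62.2 TPM in pDCs. Stat5a overlapped between genotypes in each subset, with means of 52.6 and 56.4 TPM in WT and cKO pDCs, 31.7 and 32.7 TPM in cDC1s, and 42.6 and 46.7 TPM in cDC2s. The genes nearest to Stat5b in pattern over the cDC libraries were Stk11ip (r = 0.990), Arhgap39 (r = 0.989) and Nfatc2ip (r = 0.986).

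Stat3, the STAT of IL-6, IL-10 and Flt3 ligand signaling (chr11:100886806-100939594, minus strand, 24 exons), shares 72 bases of exon with Stat5a on the opposite strand. WT pDC libraries held 232.9, 196.2 and 212.3 TPM and cKO pDC libraries 188.5, 187.0 and 193.1 TPM. All cKO values lay below the WT values, at 88.6% of the WT mean, with a log2 fold change of −0.17 (SE 0.07, 95% interval −0.33 to −0.01, limma adjusted p = 0.220). In cDC1s the values were 118.4 and 98.2 TPM in WT and 92.4 and 89.0 TPM in cKO libraries, again without overlap and again not past the threshold (−0.25, SE 0.17, adjusted p = 0.269). In cDC2s the WT values of 119.8, 129.3 and 154.4 TPM overlapped the cKO values of 139.9, 102.4 and 132.5 TPM. Between the WT cDC subsets Stat3 was not called (−0.31 in cDC1s against cDC2s, adjusted p = 0.125).

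Stat2, a factor of type I interferon signaling (chr10:128270498-128292853, plus strand, 24 exons), had its highest levels in pDCs. WT pDC libraries held 201.4, 160.8 and 207.7 TPM, 4.35 times the WT cDC1 mean and 2.56 times the WT cDC2 mean. The cKO pDC libraries at 207.0, 159.3 and 199.2 TPM overlapped them almost fully, with a log2 fold change of −0.01 (SE 0.13, limma adjusted p = 0.970). WT cDC1s had 51.4 and 36.0 TPM and cKO cDC1s 55.7 and 51.3 TPM. WT cDC2s had 52.3, 71.2 and 99.0 TPM and cKO cDC2s 76.5, 51.6 and 64.1 TPM. Neither cDC subset separated the genotypes. The lower WT level in cDC1s than in cDC2s (−0.72, SE 0.25, adjusted p = 0.0369) passed the threshold only without WT cDC2 library 1 (−0.95, adjusted p = 0.00703).

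Stat6, the STAT of IL-4 and IL-13 signaling (chr10:127642955-127660987, plus strand, 22 exons), was the member with the most even levels over the 3 WT subsets. WT values were 87.5, 108.1 and 119.4 TPM in pDCs, 112.9 and 82.3 TPM in cDC1s, and 94.5, 139.1 and 166.1 TPM in cDC2s. All 3 ranges overlapped. The cKO means of 109.7, 102.4 and 131.5 TPM lay within the WT spread, and the log2 fold changes were 0.07 in pDCs (adjusted p = 0.794), 0.09 in cDC1s (0.804) and 0.01 in cDC2s (0.974).

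Socs1, the feedback inhibitor of interferon signaling (chr16:10783808-10785536, minus strand, 2 exons), had lower values in cKO than in WT libraries of both cDC subsets. In cDC2s WT libraries held 14.2, 14.7 and 17.3 TPM and cKO libraries 10.8, 10.1 and 13.4 TPM. The groups did not overlap and the cKO mean was 74.2% of WT, but the log2 fold change of −0.40 (SE 0.20, 95% interval −0.85 to 0.04, limma adjusted p = 0.183) did not pass. In cDC1s WT libraries held 31.2 and 16.5 TPM and cKO libraries 14.7 and 16.02 TPM. Both cKO values lay below both WT values, and the log2 fold change was −0.54 (SE 0.24, 95% interval −1.08 to 0.00, adjusted p = 0.105). The contrast was called only without WT cDC1 library 2 (−0.98, adjusted p = 0.00505), so it rests on the higher WT library. WT cDC1 library 1 also held the higher sum of mature migratory DC markers, and their part was not tested. The cDC1 and cDC2 effects did not differ detectably (difference −0.14, adjusted p = 0.785). In pDCs the WT values of 26.9, 14.3 and 25.6 TPM overlapped the cKO values of 30.3, 17.4 and 30.9 TPM (0.23, SE 0.28, adjusted p = 0.682).

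Socs3, the inhibitor of gp130 cytokine and G-CSF receptor signaling (chr11:117966079-117970336, minus strand, 2 exons), was highest in pDCs. WT pDCs held 40.2, 48.4 and 41.7 TPM, and cKO pDCs 37.5, 37.9 and 40.7 TPM, which overlapped in 1 library (log2 fold change −0.16, SE 0.09, limma adjusted p = 0.338). WT cDC2s held 23.4, 15.7 and 16.6 TPM and WT cDC1s 4.53 and 11.5 TPM. The groups did not overlap, and Socs3 was lower in cDC1s by −1.21 (SE 0.30, 95% interval −1.88 to −0.55, adjusted p = 0.00686). That call was held by 5 of 15 alternatives. Without WT cDC1 library 1 the log2 difference was −0.63 (adjusted p = 0.0606), and without WT cDC1 library 2 it was −1.80 and called. It was also lost with no filter on low values (adjusted p = 0.0188) and with median-of-ratios scaling (−1.05, adjusted p = 0.0204). Genotype did not separate the libraries in cDC1s, at 4.75 and 5.35 TPM in cKO, or in cDC2s, at 18.5, 16.1 and 21.8 TPM. The genes nearest to Socs3 in pattern were Ifitm2 (r = 0.963), Acvr2a (r = 0.960) and Plaur (r = 0.959).

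Cish, an early STAT5 target (chr9:107296659-107302784, plus strand, 3 exons), was the lowest member, at 10 to 51 estimated reads a library. WT pDCs held 1.08, 1.11 and 0.79 TPM and cKO pDCs 2.11, 1.22 and 1.72 TPM. All cKO values lay above the WT values, at 169.5% of the WT mean, and the log2 fold change was 0.42 (SE 0.18, 95% interval 0.00 to 0.84, limma adjusted p = 0.237). The 10 T cell markers were higher in sum in the same cKO libraries, from 11.36 to 12.58 TPM in WT to 19.89 to 27.37 TPM in cKO pDCs, and their part in the Cish values was not tested. In cDC1s Cish stood at 0.56 and 0.59 TPM in WT and 1.58 and 1.31 TPM in cKO libraries, without overlap and 251.3% of the WT mean. With no filter on low values its log2 fold change there was 0.63 (SE 0.14, adjusted p = 0.0113), just outside the threshold. The T cell marker sums in these cDC1 libraries were 11.00 to 11.04 TPM in WT and 11.81 to 12.27 TPM in cKO. In cDC2s the WT values of 0.61, 0.36 and 0.45 TPM overlapped the cKO values of 1.02, 0.53 and 0.86 TPM (0.29, SE 0.11, adjusted p = 0.147 with no filter). Exons of Cish overlap the opposite-strand genes Gm17040 (261 bases) and Gm17041 (479 bases), whose reads cannot be told apart where counting does not use strand.

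The other genes of the pathway were followed in 5 lists. Of all genes tested, 1.05% were called in pDCs, 22.4% in cDC1s and 7.15% in cDC2s, and the list counts stand beside these shares. An unadjusted p under 0.05 was reached by at least 2309 of 11299 genes in pDCs and by fewer than 4368 of 11411 in cDC2s. Among 22 JAK kinases and negative regulators, 0 passed in pDCs (5 had an unadjusted p under 0.05, and 1, Usp18, passed with the replicate block), 1 rose and 1 fell in cDC1s, and 1 fell in cDC2s. The medians of the list were −0.08, 0.09 and −0.08, beside −0.05, 0.17 and −0.03 for all genes. The gene that fell in cDC1s was Socs2, a further SOCS family member that limits growth hormone signaling. It read 27.9 and 64.2 TPM in WT cDC1s and 3.11 and 6.91 TPM in cKO cDC1s (log2 fold change −2.93, SE 0.55, limma adjusted p = 0.00257), and was not called without WT cDC1 library 1 (adjusted p = 0.0245) or cKO cDC1 library 1 (0.0312). In cDC2s Socs2 ran from 24.8 to 74.8 TPM in WT and from 11.5 to 22.1 TPM in cKO libraries and was not called (−1.11, SE 0.45, adjusted p = 0.113). Mature migratory DC markers also fell in cKO cDC1s, and their part in the Socs2 values was not tested. Ptpn11, the phosphatase SHP2, rose in cDC1s (0.70, SE 0.15, adjusted p = 0.00523), and each left-out cDC1 library ended that call (adjusted p 0.0122 to 0.0539). With median-of-ratios scaling it stood at 0.51 and was not called. Jak2, the kinase of the GM-CSF and interferon-gamma receptors, fell in cDC2s from 362 to 402 TPM in WT to 250 to 253 TPM in cKO libraries (−0.61, SE 0.08, adjusted p = 7.38e-04), and this call held with each library left out. In cDC1s its value was −0.44 (adjusted p = 0.00442), under the fold threshold.

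More cytokine receptors fell than rose in cDC1s. The list held 32 receptors, most of which signal through JAKs, while Csf1r and Flt3 are receptor tyrosine kinases with kinase activity of their own. Of these, 0 of the 27 tested in pDCs passed by limma (7 had an unadjusted p under 0.05). In cDC1s 8 fell and 1 rose (list median −0.29, all genes 0.17), and in cDC2s 1 rose (−0.07, all genes −0.03). Over all genes tested, 22.4% were called in cDC1s and 7.15% in cDC2s. The receptors that fell furthest in cDC1s were Il21r (−2.81), Ifnlr1, the interferon-lambda receptor chain (−2.49), Il15ra (−1.93), Il4ra, the IL-4 receptor upstream of STAT6 (−1.34), Ifngr1 (−1.01) and Csf2rb2 (−0.90). Il21r read 30.4 and 57.7 TPM in WT and 4.36 and 6.01 TPM in cKO cDC1s, and Il15ra 31.9 and 63.9 TPM and 10.2 and 12.1 TPM. Ifnlr1 read 11.73 and 11.96 TPM in WT cDC1s and 1.22 and 1.35 TPM in cKO cDC1s. Il4ra read 45.8 and 71.8 TPM in WT and 21.7 and 22.5 TPM in cKO cDC1s. The calls of Il21r, Ifnlr1, Il4ra and Ifngr1 in cDC1s held with each library left out. The 1 receptor that rose was Csf1r, the receptor of the macrophage growth factor M-CSF and no JAK-coupled receptor, by 0.85 in cDC1s and 0.94 in cDC2s. Its cDC1 call was lost with median-of-ratios scaling, under which 12 receptors fell and 0 rose, and its cDC2 call held in 6 of 10 fits that left a library out. It read 154 to 161 TPM in WT and 232 to 346 TPM in cKO cDC2s. Among the 13 monocyte and macrophage markers, which include Csf1r, 3 rose (Ccr2, Ly6c2 and Csf1r) and 2 fell (Spic and Vcam1) in cDC1s. Their median log2 fold change there was −0.86, beside 0.17 over all genes. In cDC2s 3 rose (Ccr2, Fcgr1 and Csf1r) and 0 fell, with a median of 0.205. Ccr2 alone went from 15.7 to 31.6 TPM in WT cDC1s to 90.6 to 107.6 TPM in cKO cDC1s. The 13 markers summed to 142 to 169 TPM in WT and 209 to 228 TPM in cKO cDC1s. In cDC2s the sums were 622 to 953 TPM in WT and 783 to 1173 TPM in cKO libraries, which overlapped. The part of these markers in the Csf1r values was not tested. In cDC1s 17 of the 20 mature migratory DC markers also fell (median −1.595), and their part in the receptor values was not tested.

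Of 21 ligands, few were expressed. In pDCs 0 of 5 tested were called, in cDC1s 2 of 8 fell and in cDC2s 0 of 8 were called (list medians 0.06, −0.35 and −0.04). Over all genes tested, 22.4% were called in cDC1s. Il12b, the p40 subunit of IL-12 and IL-23 and so a ligand upstream of STAT4, fell in cDC1s from 69.8 and 100.8 TPM to 2.76 and 4.82 TPM (−4.18, SE 0.29, limma adjusted p = 1.58e-05). WT and cKO cDC2s overlapped, at 4.26 to 7.32 and 3.72 to 6.24 TPM. Il15, a ligand that activates STAT5, was the other gene that fell in cDC1s (−1.37), and it was not called without WT cDC1 library 1 or either cKO cDC1 library. In the same comparison 17 of the 20 mature migratory DC markers fell, and their part in the ligand values was not tested.

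Among 29 STAT target genes known from textbooks, cyclin genes were among those that rose. In pDCs 2 of 23 tested rose and 0 fell (list median 0.06, all genes −0.05), Ccnd2 (1.54) and Ccnd3 (1.199), and with the replicate block Myc and Pim2 were called beside them. Without WT pDC library 3 neither Ccnd2 (1.505, adjusted p = 0.0114) nor Ccnd3 (1.13, 0.0218) was called, and without WT pDC library 2 Ccnd3 was not (1.22, 0.0123). In cDC1s 4 of 27 rose and 3 fell (list median −0.31, all genes 0.17), where 22.4% of all genes tested were called. The genes that rose were Myc (2.09), Ccnd2 (1.10), Ccnd3 (1.08) and Ccnd1 (0.91), which drive cell growth and the entry into the cell cycle. Those that fell were the chemokine gene Ccl22 (−2.92), Junb (−1.41) and Bcl2l1, the gene of BCL-xL (−0.82). Junb read 1012 and 1599 TPM in WT and 461.6 and 494.8 TPM in cKO cDC1s, and Ccl22 91.8 and 139.8 TPM and 13.6 and 14.5 TPM. Mature migratory DC markers fell in these cKO cDC1s too, and their part in the values of these 3 genes was not tested. The calls of Ccl22, Ccnd1 and Ccnd3 held in 10 of 10 fits that left a library out, that of Ccnd2 in 7 and that of Junb in 3 (adjusted p up to 0.0565, without WT cDC1 library 2). Junb is also an immediate-early gene, and 8 of the 20 immediate-early genes fell in cDC1s (median −1.29), with sums of 10076 to 16275 TPM in WT and 6243 to 6792 TPM in cKO libraries. Their part in the Junb value was not tested. In cDC2s Ccnd3 (0.71) and Cxcl10 (0.77) rose, and Bcl6, the repressor under STAT control in lymphocytes, fell (−0.77), with a list median of −0.17 beside −0.03 for all genes. Each of these cDC2 calls was lost in more than 5 of the 10 fits that left a library out. Myc in cDC1s read 16.3 and 23.0 TPM in WT and 80.9 and 90.4 TPM in cKO libraries, and its call held with each library left out. Of 25 interferon-stimulated genes, 23 were tested in each table. In pDCs 1 rose (Isg20, 0.86; 17 at an unadjusted p under 0.05), with a list median of 0.42, but Isg20 was called in only 1 of 6 fits that left a library out. In all, 6 were called with the replicate block (Ifit2, Isg15, Isg20, Oas2, Oasl2 and Zbp1). In cDC1s 7 rose, led by Oas3 (1.47), Cmpk2 (1.45) and Oas1a (1.196), with a list median of 0.39 beside 0.17 for all genes, and 5 rose with median-of-ratios scaling. Of these calls, Cmpk2 held in 10 of 10 fits that left a library out, Oas1a in 7 and Oas3 in 3. In cDC2s 0 were called by limma (3 at an unadjusted p under 0.05) and the list median was 0.07.

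**Figure D5:**
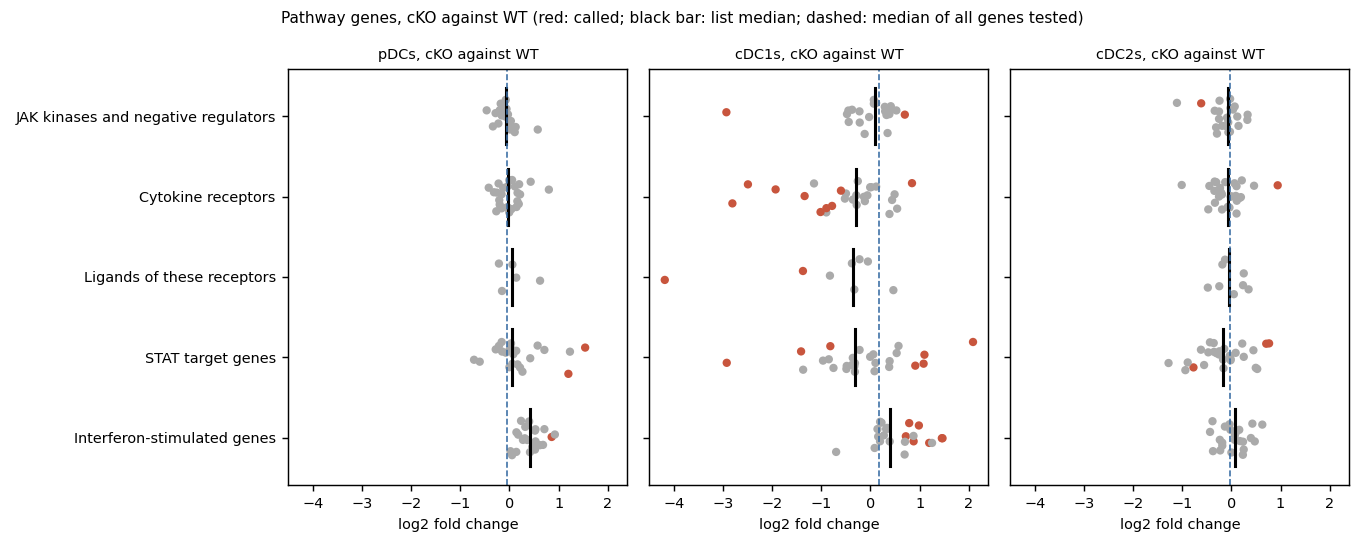
Log2 fold change of every tested gene of the 5 pathway lists for cKO against WT in each subset, on the log2(TPM + 1) scale, with called genes in red, the list median as a black bar and the median of all genes as a dashed line. The receptor median in cDC1s lies at −0.29, to the left of the dashed line at 0.17, and the interferon-stimulated gene median in pDCs lies at 0.42, to the right of the dashed line at −0.05.

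Between WT cDC1s and WT cDC2s, where 31.7% of genes were called and the median of all genes was −0.17, the interferon-stimulated genes stood out by their count. Of 23 tested, 18 were lower and 1 was higher in cDC1s (list median −1.83), led by Rtp4 (−5.92), Oas2 (−5.64) and Ddx58 (−4.82). Their sum ran from 610 to 714 TPM in WT cDC1s and from 1193 to 1718 TPM in WT cDC2s. Among the 27 tested receptors 12 were lower and 3 higher (list median −0.36), with Csf1r (−3.62), a receptor tyrosine kinase, and Csf3r, the G-CSF receptor (−3.16), lowest and Ifnlr1 (2.48) highest. Of the 22 JAK kinases and regulators 6 were lower (list median −0.23), among them Ptpn6 (−1.82), Ptprc (−1.67) and Jak3 (−1.52), and Tyk2, the kinase of the type I interferon and IL-12 receptors, was higher (0.97). Of 27 tested STAT targets 8 were lower and 4 higher in cDC1s (list median −0.32). The counts lower in cDC1s were the same with median-of-ratios scaling for these 4 lists. Tbx21, the gene of T-bet and a target of STAT4 in T cells, was lower (−3.77), and Cxcl9, a chemokine gene, was higher (3.77). Of the 8 tested ligands 2 were lower and 2 higher (list median 0.23), and Il12b was higher in cDC1s (3.70), the subset in which Stat4 was low.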

How the data were processed

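Spleen DC subsets were sorted by the authors (pDCs as CD11c+ SiglecH+ cells; cDCs as CD11c+ SiglecH- MHC II+ cells split by CD24 and CD172a), and mRNA libraries made from total RNA were sequenced as 50-base single reads. Per the labels and the study's methods, reads were mapped with Bowtie2 2.2.5 to a transcript reference, whose release is not given in the sources used here, and RSEM 1.2.12 estimated levels; HISAT2 2.0.4 is also named. The authors deposited TPM per gene in a pDC and a cDC table. Deposited FPKM tables of the same genes served for depth and as an alternative. Each of the 32 value columns belonged to 1 library. Columns of the authors' own comparisons were not used.

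Genes with a mean of at least 1 TPM (11299 in pDCs, 11411 in cDCs) were fitted with limma 3.58.1 (lmFit, eBayes with trend; R 4.3.3) on log2(TPM + 1), in place of the authors' count model, since the values are not counts. Changes of low genes are understated on this scale. For pDCs 6 libraries were fitted, and for cDCs 10 as 4 group means. P-values were two-sided and Benjamini-Hochberg adjusted within each contrast, with the study's thresholds. The scripts were tested on simulated data. Tables and plots used pandas 2.3.3, numpy 2.4.6 and matplotlib 3.10.9 under Python 3.11.15.

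The members and lists were chosen with earlier results of these data known. Named list genes are up to 6 called genes per list and contrast with the largest fold change, and 3 genes nearest in pattern for each member called in the cDC table. Other named list genes were chosen after their values were seen. Depth was estimated from the steps of the lowest FPKM values over a scan from 12 to 30 M reads, and covers counting error only. The libraries are biological replicates per the series' design, and each pooled several mice, so their spread is not that between single mice. In pDCs, deviations from the group means correlated best between libraries with the same replicate number (r = 0.310, 0.392 and 0.206), which did not hold in the cDC libraries. The labels do not say what a number marks, so pairing is not established. The main fits did not use the numbers, and the replicate block was an alternative. Gene positions and promoter windows are from RefSeq and exons from GENCODE, both on GRCm38. The alternatives were another pseudocount (0.1), no filter, FPKM, median-of-ratios scaling, a replicate block, each cDC subset alone and each library left out.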

Additional observations from a re-analysis of the deposited data

Results flagged for a closer look

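For 7 genes of the pathway lists the genotype effect differed between cDC1s and cDC2s by the test of the difference itself (the cDC1 log2 fold change minus the cDC2 one, limma). The ligand gene Il12b differed by −4.05 (adjusted p = 3.59e-04) and the chemokine gene Ccl22 by −3.45 (0.00102). The receptor genes Il21r and Ifnlr1 differed by −2.47 (0.00200) and −2.45 (3.85e-04). The IL-4 receptor gene Il4ra differed by −1.43 (0.00733) and the interferon-gamma receptor gene Ifngr1 by −0.81 (0.00378). The cyclin gene Ccnd1 differed in the other direction, by 1.22 (7.80e-04). With each of the 10 cDC libraries left out in turn, Il12b, Ccl22, Ifnlr1 and Ccnd1 were called in 10 fits, Il21r in 9, Ifngr1 in 4 and Il4ra in 2. The Il21r call was lost without cKO cDC1 library 1. Over the 20 mature migratory DC markers the median difference was −1.035, beside 0.218 over all genes, and 1 marker was called (Cd274, lower). The part of these markers in the 7 results was not tested.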

How the results depend on the processing

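The numbers of genes called moved with several alternatives. In pDCs 24 genes were called with no filter and 335 with the replicate block, and leaving out 1 library gave 12 to 97. For cKO against WT cDC2s the replicate block gave 0 members and 356 genes, the cDC2 libraries alone gave 0 members and 444 genes, and leaving out 1 library gave 0 to 1 members and 316 to 907 genes. The cDC1 comparison ranged from 0 to 1 members and 800 to 2888 genes with a library left out, and crossed replicate numbers in cDC1s, chosen after seeing the data, gave 0 members and 2091 genes. The difference between the cDC effects gave 95 genes with the replicate block and 77 to 282 with a library left out. WT cDC1s against WT cDC2s gave 2 to 4 members and 2649 to 3575 genes with a library left out. The numbers of the cDC libraries were not shown to pair them (same-number r = −0.233 in cDC1s and −0.249, 0.253 and −0.165 in cDC2s, where not every library correlated best with its own number). With the block the Stat4 value in cDC2s had an adjusted p of 0.0128. No member was called in an alternative that turned its direction. With FPKM and with median-of-ratios scaling, Stat2 in pDCs read 0.018 and 0.030, Stat5a in cDC1s −0.015 and −0.142, and Stat6 in the difference −0.034 and −0.146. Stat5b in cDC2s turned with FPKM (0.006), and Stat6 in cDC1s with median-of-ratios scaling (−0.11). With a library left out, the log2 fold changes in pDCs ran from −0.13 to 0.10 (Stat2), −0.16 to 0.12 (Stat4), −0.009 to 0.209 (Stat5a), −0.056 to 0.166 (Stat6) and −0.046 to 0.492 (Socs1). In cDC1s they ran from −0.10 to 0.20 (Stat5a), −0.14 to 0.31 (Stat6) and −1.05 to 0.13 (Socs3). In cDC2s they ran from −0.403 to 0.051 (Stat2), −0.197 to 0.026 (Stat3), −0.012 to 0.232 (Stat5a), −0.115 to 0.077 (Stat5b), −0.21 to 0.19 (Stat6) and −0.079 to 0.199 (Socs3). In the difference they ran from −0.237 to 0.061 (Stat5a), −0.15 to 0.30 (Stat6), −0.57 to 0.30 (Socs1) and −1.08 to 0.10 (Socs3). The causes were not tested. Groups held 2 or 3 libraries, and Cish in every library and Stat4 in cDC1s rest on under 100 estimated reads each.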

Other observations

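Within WT cDC2s, library 1 held the lowest value of all 6 STATs (Stat2 52.3, Stat3 119.8, Stat4 43.17, Stat5a 34.1, Stat5b 53.6 and Stat6 94.5 TPM) and the highest Socs3 (23.4 TPM). Library 3 of that group held the highest Stat2 (99.0 TPM), Stat3 (154.4 TPM), Stat5a (47.4 TPM), Stat5b (61.8 TPM) and Stat6 (166.1 TPM). Library 1 stood apart in the 20 immediate-early genes, with a sum of 32701 TPM against 12802 and 16112 TPM in the other WT cDC2 libraries. In cKO cDC2s these sums were 8580 to 9744 TPM.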
